A study of Mus musculus with 16 samples.

Results

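RNA of the hypothalamus, the brain region beneath the thalamus, was sequenced from inbred C57BL/6N mice and compared between diets with 1% of energy from protein and diets with 2.5% of energy from protein. The comparison took every library that the labels place at these protein contents, 8 of the 16 libraries of the series. Of these, 4 came from 1% protein diets, 2 with 60% and 2 with 20% of energy from fat, and 4 came from 2.5% protein diets with the same division by fat. The other 8 libraries, from diets with 5% or 20% protein at the same fat contents, entered the fits so that all diets shared an estimate of the spread. The labels number the libraries of a diet as replicates and do not say whether each is a separate animal, so p-values cover the spread between libraries alone, and part or all of it may be technical. The labels give no age, sex or length of feeding, and no genetic change or drug.

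A diet very low in protein supplies too few essential amino acids for growth. The hypothalamus reads nutritional state through hormones and nutrients and sets food intake, body temperature, energy expenditure and the stress axis. In its arcuate nucleus, neurons that make neuropeptide Y and agouti-related peptide drive feeding, and neurons that make pro-opiomelanocortin restrain it. Within cells, scarce amino acids lower the activity of mTORC1, a kinase complex that promotes protein synthesis, and raise translation of the transcription factor ATF4, which switches on amino acid synthesis and transport.

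In what follows, A1 and A2 are replicates 1 and 2 of 60% fat with 1% protein, and B1 and B2 are those of 20% fat with 1% protein. C1 and C2 are those of 60% fat with 2.5% protein, and D1 and D2 those of 20% fat with 2.5% protein. Total counts ran from 18275263 to 18511818 over the 8 libraries. Reads on genes of the mitochondrial genome took 1.54 to 3.20% of the counts at 1% protein and 2.42 to 2.98% at 2.5% protein (exact permutation test, two-sided, p = 0.171), and the highest value at 1% protein belonged to B2. Within a library, the Spearman correlation across genes between gene length and the log2 deviation of that library from the mean ran from -0.261 to 0.166 at 1% protein and from 0.0371 to 0.0792 at 2.5% protein. The value of 0.166 belonged to B2, against -0.261 in A1, -0.169 in A2 and -0.258 in B1. Markers of cortical and hippocampal neurons stood above the mean of all libraries by 0.717 on the log2 scale in library B2 and by 1.46 in library D2, while the other 6 of these libraries were at or below 0.0148. Markers of striatal neurons stood 0.848 above the mean in library A2. A gene's value without B2 and D2, or without A2, B2 and D2, is given where it ends or gives a call over both fat levels.

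The step from 2.5% to 1% protein changed 386 of 16646 genes tested, which is 2.32%, at an adjusted p below 0.05 in edgeR's quasi-likelihood test with fat as a covariate. Of these, 231 genes rose (1.39% of those tested) and 155 fell (0.931%). Most changes were modest: the median risen gene was 1.27-fold higher at 1% protein, the median fallen gene was 1.41-fold lower, and 20 risen and 13 fallen genes changed by more than 2-fold. The median log2 change of all genes tested was 0.01. The median gene length was 17599 bases for risen genes, 30474 for fallen genes and 22590 for all genes tested. After removal of a trend with gene length, 250 genes were higher and 171 lower. The 4 libraries at 1% protein lay above all 4 at 2.5% protein in 193 of the 231 risen genes and below them in 146 of the 155 fallen genes, against 4.13% and 3.15% of all genes tested. The selection of called genes on these same libraries favours such separation, so it is no separate evidence. DESeq2 called 478 genes higher and 331 lower, together 5.89% of the 13741 genes for which it gave an adjusted p.

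The number of genes called depended strongly on single libraries. Without library B2, which carried the cortical markers and the high mitochondrial share, 2098 genes were higher and 2167 lower. Without both libraries with cortical markers the counts were 1983 higher and 2043 lower, and without these and the library with striatal markers, a setting chosen after the data were seen, they were 1445 and 1512. Leaving out another single library of the comparison could lower the counts. They were 56 higher and 39 lower without library C2, 59 and 47 without A2, and 79 and 80 without C1. They were 80 and 65 without B1, 94 and 95 without A1, and 141 and 112 without D2. Without 60% fat, 5% protein replicate 1 the count was 150 higher, and without 60% fat, 20% protein replicate 2 it was 153 higher.

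**Figure D1:**
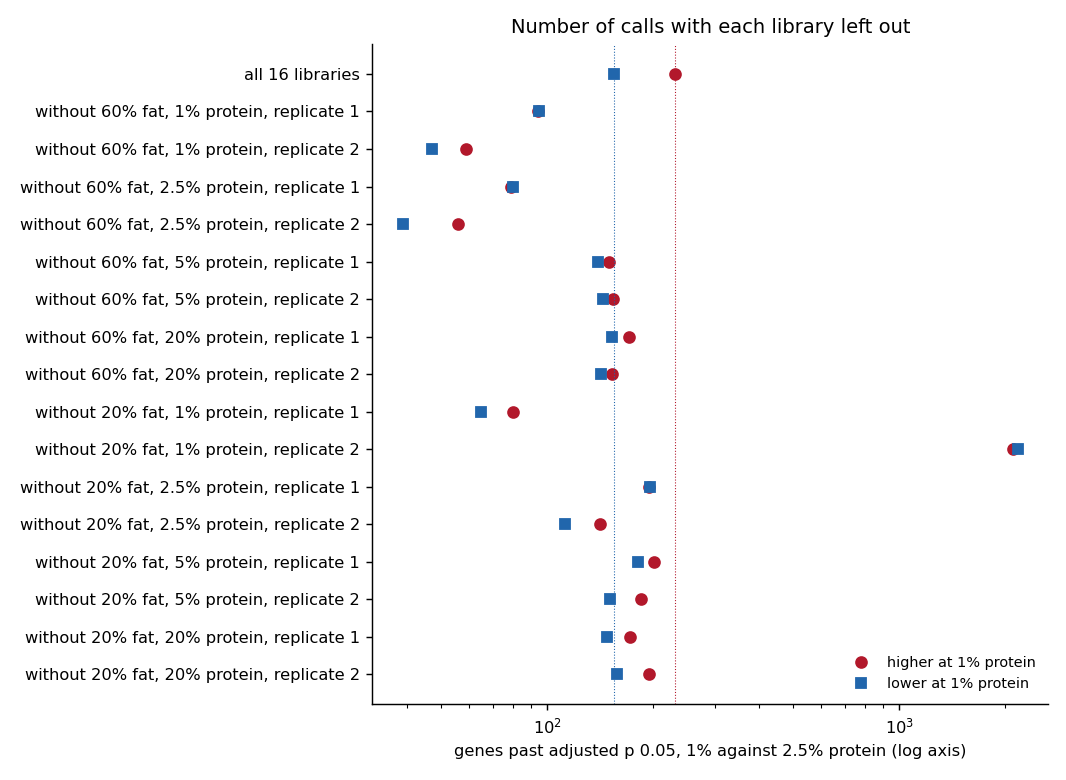
Number of genes past an adjusted p of 0.05 between 1% and 2.5% protein, on a log axis, with all 16 libraries (top) and with each library left out, circles for genes higher and squares for genes lower at 1% protein, and dotted lines at the counts with all libraries. Leaving out B2 raised the counts to 2098 and 2167, while leaving out C2 lowered them to 56 and 39.

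Among the appetite peptides, Npy, which encodes neuropeptide Y, rose and Pomc, the precursor of the satiety peptide alpha-MSH, fell. Values per library are given in CPM (the read count relative to library size, scaled by edgeR's TMM factors), in the order A1, A2, B1 and B2 at 1% protein and C1, C2, D1 and D2 at 2.5% protein. Npy had 57.0, 58.0, 86.4 and 120 CPM at 1% protein, against 26.1, 25.4, 28.5 and 44.3 CPM at 2.5% protein. All 4 libraries at 1% protein were above all 4 at 2.5%, and within each protein content the 20% fat libraries were the higher ones. Npy was 2.55-fold higher at 1% protein (log2 change 1.35, SE 0.19, adjusted p = 0.00154). Pomc had 13.7, 11.5, 13.7 and 11.8 CPM at 1% protein, against 35.5, 29.7, 18.7 and 17.2 CPM at 2.5% protein. The groups did not overlap, and the libraries at 1% protein were close together whichever the fat content. Pomc was 1.97-fold lower at 1% protein (log2 change -0.98, SE 0.19, adjusted p = 0.015). In bulk tissue, fewer cells of a type and less RNA per cell cannot be told apart. Pomc is also on the list of pituitary markers. Of the 8 tested, 7 had a negative log2 change, with a median of -0.66 (-1.075 at 60% fat and -0.31 at 20% fat). Their summed level was 36.19 to 48.34 CPM at 1% protein and 42.78 to 66.9 CPM at 2.5% protein. The part of pituitary tissue in the Pomc value was not tested.

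Npy was the 1 called gene of 9 tested peptides that promote feeding, and Pomc was the 1 called gene of 17 that restrain it, on lists whose median log2 changes were 0.07 and -0.10. Agrp, made by the same arcuate neurons as Npy, averaged 6.94 ± 1.06 CPM at 1% protein and 5.52 ± 0.641 CPM at 2.5% protein (SD, n = 4 each), with overlapping libraries and an adjusted p of 0.158. Its gene span overlaps 2 other coding genes. Cartpt, which encodes the CART peptide, had a log2 change of -0.16 (adjusted p = 0.501). Pmch, for melanin-concentrating hormone, had -0.24 (adjusted p = 0.181; it passed as lower without B2 and D2, at -0.31 with an adjusted p of 0.00528, without A2, B2 and D2, at -0.24 with 0.0298, and without D2 alone), and Hcrt, for orexin, had -0.03 (adjusted p = 0.915). None of the 26 tested receptors and leptin-signalling genes passed edgeR's test (8 at an unadjusted p under 0.05), and DESeq2 called 2 of them higher. The Pomc call ended without A2 or C2, while the Npy call held in each of the 27 alternatives.

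**Figure D2:**
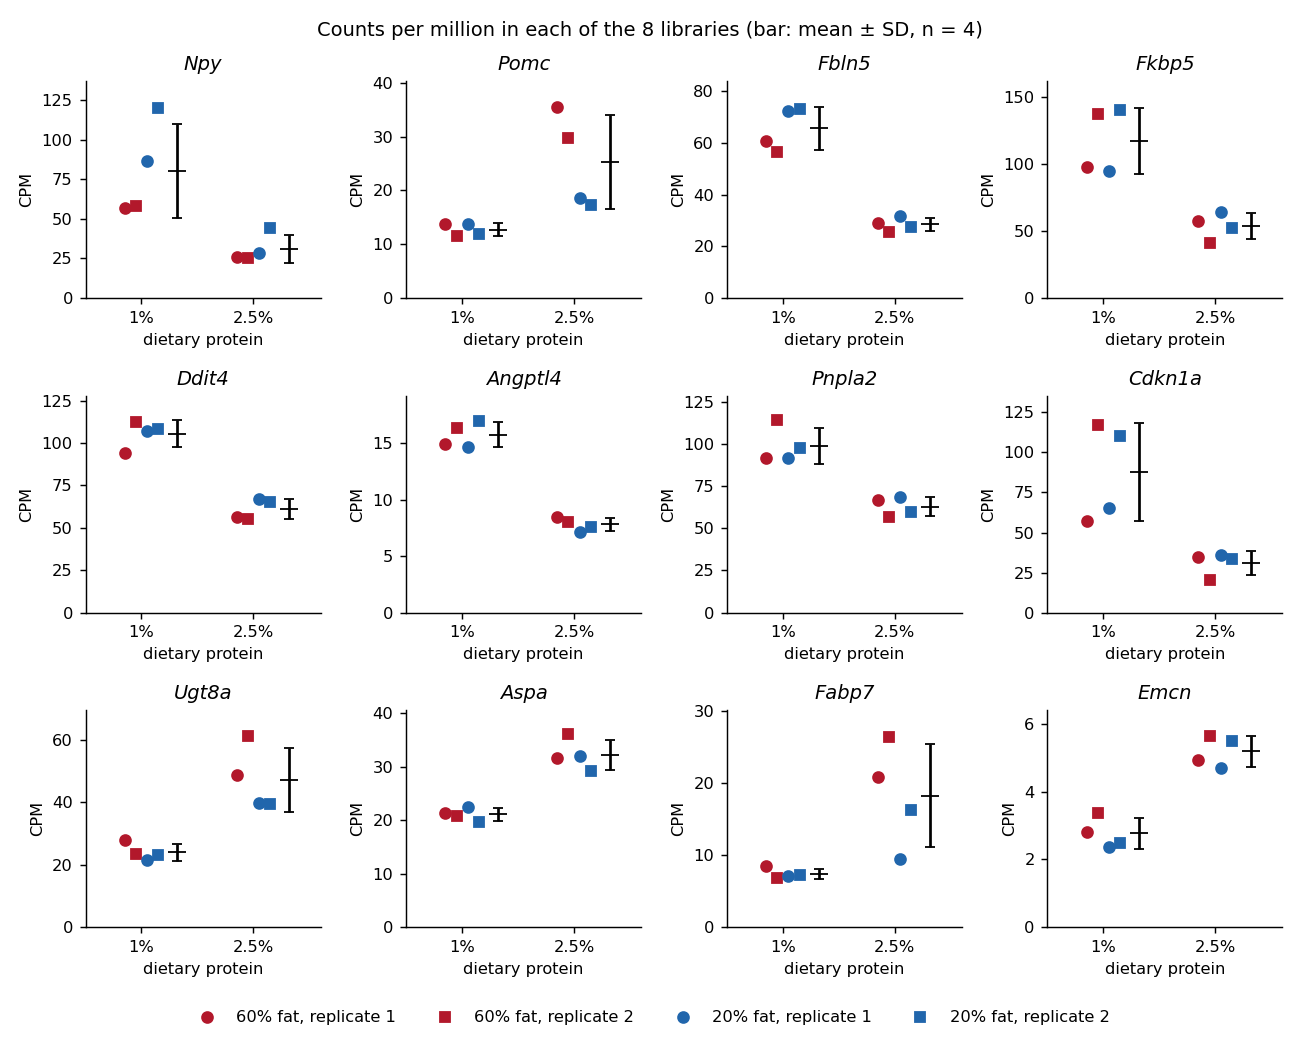
CPM of 12 genes in each of the 8 libraries, with 1% protein left of 2.5% protein, red for 60% fat and blue for 20% fat, circles for replicate 1 and squares for replicate 2, and black bars for the mean ± SD of 4 libraries. The groups do not overlap in any of the 12 genes. Pomc lies between 11.5 and 13.7 CPM at 1% protein and between 17.2 and 35.5 CPM at 2.5%.

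Genes known to be induced by glucocorticoids rose together. These steroid hormones of the adrenal cortex act through the receptor encoded by Nr3c1. Of 22 genes on the list, Nr3c1 among them and all of which were tested, 14 rose and 1 fell. Of all genes tested, 1.39% rose and 0.931% fell. The list's median log2 change was 0.80, against 0.01 for all genes tested. The list was chosen with earlier results of these data known, so its counts are no separate evidence. Fkbp5, a co-chaperone that restrains the receptor, had 97.6, 137, 94.4 and 140 CPM at 1% protein, against 57.3, 41.2, 64.1 and 52.3 CPM at 2.5% protein. The groups did not overlap, and the replicate 2 libraries were the highest at 1% protein at both fat contents. Fkbp5 was 2.18-fold higher (adjusted p = 0.000865). Cdkn1a, the cell-cycle inhibitor p21, had 57.3, 117, 65.3 and 111 CPM at 1% protein, against 34.9, 20.0, 35.8 and 33.3 CPM at 2.5% protein. It too was highest in the replicate 2 libraries at 1% protein, and it was 2.83-fold higher (adjusted p = 0.0035). These replicate 2 libraries are those with markers of striatal and of cortical neurons. Without them and the 2.5% protein library with cortical markers, the log2 change of Fkbp5 was 0.81 (adjusted p = 0.00443), against 1.13 with all libraries, and that of Cdkn1a was 1.01 (adjusted p = 0.00786), against 1.5. Ddit4, which encodes the mTORC1 inhibitor REDD1, was even between libraries, at 94.3, 112, 107 and 108 CPM at 1% protein against 56.5, 55.2, 67.2 and 65.2 CPM at 2.5% protein (1.73-fold higher, adjusted p = 0.000149).

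Map3k6, a stress-activated kinase, averaged 14.3 ± 3.02 CPM at 1% protein and 6.65 ± 1.47 CPM at 2.5% (SD, n = 4 each; adjusted p = 0.00332). The metallothionein genes Mt1 and Mt2, which encode metal-binding proteins, rose by 0.44 and 0.43 on the log2 scale (adjusted p = 0.0035 and 0.00807). Among further risen members, named after their values were seen, were Sult1a1, a sulfotransferase, at a log2 change of 1.12, Hif3a, a hypoxia-inducible factor subunit, at 1.06, Arl4d at 0.97, Arrdc2 at 0.89 and Tsc22d3, the anti-inflammatory factor GILZ, at 0.49. The member that fell was the receptor gene itself: Nr3c1 had 65.7, 61.7, 71.6 and 76.7 CPM at 1% protein, against 80.7, 93.6, 79.5 and 84.6 CPM at 2.5% protein. The groups did not overlap, and the fall was 1.23-fold (adjusted p = 0.0348). The Nr3c1 call ended without any 1 of 6 libraries, namely A1, A2, B1, C1, C2 and D2. The count of risen members was 9 without A2, 9 without C1 and 8 without C2. The Arl4d call ended without C2, the Arrdc2 call without A2, B1, C1 or C2, and the Tsc22d3 call without any of those or D2, and likewise without 60% fat, 5% protein replicate 1, 60% fat, 20% protein replicate 2 or 20% fat, 20% protein replicate 1. Without A2, B2 and D2 the log2 change of Tsc22d3 was 0.28 (adjusted p = 0.123). The count on the list was 18 without the libraries with cortical markers and 7 when the 8 libraries were fitted alone.

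Of the 22 genes, 20 had promoter windows in RefSeq (GRCm38.p6), each from 250 bases before to 50 bases after an annotated start, 30 windows in all. A glucocorticoid response element was searched as the half-site GNACA followed, after 3 bases of any kind, by its reverse complement TGTNC. This motif reads the same on both strands. It occurred in 3 of these 30 windows and in 0.475% of all 32851 windows. Apart from the receptor gene Nr3c1, the genes were listed for known induction by glucocorticoids, so this share says nothing about the diets. A match describes letters and does not show binding. The windows with a match are printed because their genes belong to the glucocorticoid list, 5′ to 3′ on the plus strand with the matched 13 bases in capitals. Map3k6 and Mt1 were called as risen, and Sgk1 was not. They lie at chr4:133240568-133240867 for Map3k6, chr8:94178839-94179138 for Mt1 and chr10:21993640-21993939 for Sgk1, which encodes a kinase of salt transport and has other annotated starts without a match.
Map3k6: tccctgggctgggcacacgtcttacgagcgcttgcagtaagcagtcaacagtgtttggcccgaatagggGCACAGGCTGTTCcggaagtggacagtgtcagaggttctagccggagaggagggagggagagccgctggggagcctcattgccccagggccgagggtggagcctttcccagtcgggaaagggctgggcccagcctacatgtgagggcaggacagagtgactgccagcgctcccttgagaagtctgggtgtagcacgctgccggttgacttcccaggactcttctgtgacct
Mt1: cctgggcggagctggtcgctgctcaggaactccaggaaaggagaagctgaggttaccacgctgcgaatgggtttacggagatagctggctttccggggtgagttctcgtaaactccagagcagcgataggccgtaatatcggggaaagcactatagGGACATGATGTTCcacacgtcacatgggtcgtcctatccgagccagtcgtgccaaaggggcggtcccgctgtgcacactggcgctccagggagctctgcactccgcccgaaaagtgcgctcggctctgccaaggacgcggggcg
Sgk1: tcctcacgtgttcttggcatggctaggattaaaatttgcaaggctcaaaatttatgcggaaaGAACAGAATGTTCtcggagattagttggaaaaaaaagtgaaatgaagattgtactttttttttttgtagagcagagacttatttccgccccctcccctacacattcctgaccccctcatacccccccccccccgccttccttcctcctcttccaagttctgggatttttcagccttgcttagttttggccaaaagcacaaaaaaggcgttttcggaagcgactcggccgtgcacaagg

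The match began 181 bases before the start in Map3k6, 94 bases before it in Mt1 and 188 bases before it in Sgk1. Mt1 had 374, 383, 354 and 348 CPM at 1% protein, against 270, 236, 303 and 262 CPM at 2.5% protein, with no overlap. Sgk1 had 279, 351, 271 and 292 CPM at 1% protein, against 140, 136, 231 and 211 CPM at 2.5% protein. Its groups did not overlap either, but its log2 change of 0.76 (SE 0.22) did not pass over both fat levels (adjusted p = 0.078). It passed without B2 and D2 (log2 change 0.84, adjusted p = 0.0201) and without B2 alone, and not without A2, B2 and D2 (0.69, adjusted p = 0.0835). At 60% fat alone it passed with a log2 change of 1.19 (adjusted p = 0.0432).

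**Figure D3:**
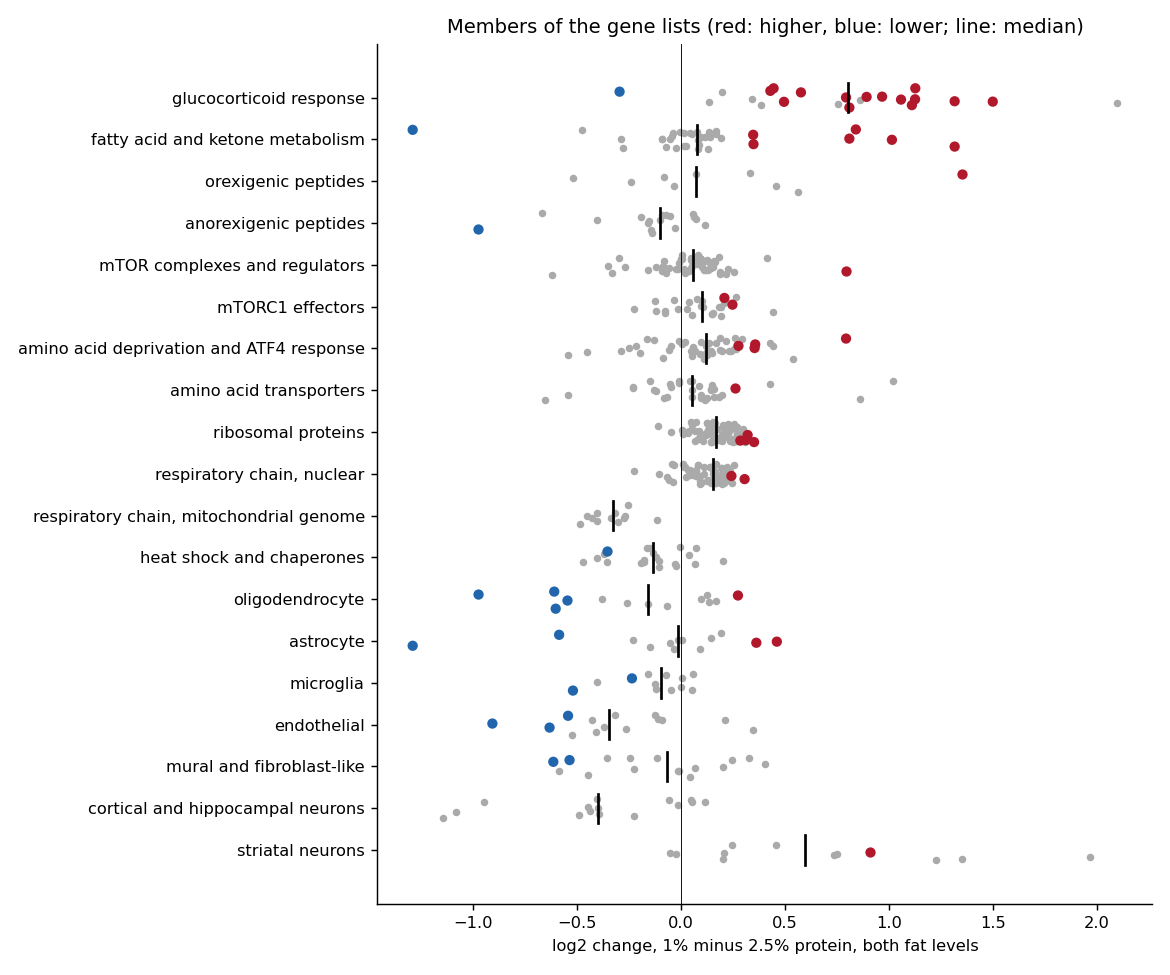
Log2 change between 1% and 2.5% protein of the tested members of 19 gene lists, with red points for members that rose and blue points for members that fell at an adjusted p below 0.05, grey points for the others and a black line at each list's median. The glucocorticoid list has its median at 0.80, with 14 members risen and 1 fallen, while the lists of mTOR regulators and amino acid transporters have theirs at 0.05.

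Genes of fat use and ketone metabolism changed in part. When tissues burn fat, lipases release fatty acids and mitochondria oxidise them or turn them into ketone bodies. Of 35 tested genes on the list, 6 rose and 1 fell, and the median log2 change was 0.08. Of all genes tested, 1.39% rose and 0.931% fell. Angptl4, a fasting-induced inhibitor of lipoprotein lipase, had 14.9, 16.4, 14.7 and 17.0 CPM at 1% protein, against 8.50, 8.04, 7.16 and 7.56 CPM at 2.5% protein. The libraries of each protein content were within a narrow range, and Angptl4 was 2.02-fold higher (adjusted p = 0.000305).

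Plin4, which coats lipid droplets, had 67.0, 112, 62.2 and 92.6 CPM at 1% protein, against 35.3, 16.1, 53.9 and 30.2 CPM at 2.5% protein. It did not overlap between groups but varied widely within each, and it was 2.49-fold higher (adjusted p = 0.0317). Pdk4 and Pdk2, kinases that hold back glucose oxidation, rose by 0.81 (adjusted p = 0.0189) and 0.35 (adjusted p = 0.0134) on the log2 scale, and Ucp2, a mitochondrial carrier, rose by 0.35 (adjusted p = 0.0267). Plin4 and Pdk4 also stand on the glucocorticoid list. The fallen member was Fabp7, a fatty acid-binding protein of astrocytes and radial glia, described with the glial genes. Off the list, and named after its values were seen, Pnpla2, the lipase that starts triglyceride breakdown, averaged 98.7 ± 10.6 CPM at 1% protein and 62.9 ± 5.57 CPM at 2.5% (SD, n = 4 each; adjusted p = 0.000928). Plin5, a lipid droplet protein named in the same way, was 1.72-fold higher (adjusted p = 0.0237).

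The calls of Angptl4 and Pnpla2 held in each of their alternatives. Those of Plin4 and Pdk4 ended without A2, C1, C2 or D2. Without A2, B2 and D2 the log2 change of Plin4 was 0.87 (adjusted p = 0.0858) and that of Pdk4 was 0.32 (adjusted p = 0.106). The Pdk2 call ended without A2, C2 or B1. The Ucp2 call ended without any of A1, A2, B1, C1, C2 and D2. The Plin5 call ended without any of A1, A2, B1, C1, C2 and D1.

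The 12 called genes with the largest rises, among those with a mean of at least 1 CPM, included several known from leukocytes or the extracellular space. Itgad, a leukocyte integrin subunit, had 3.71, 5.80, 5.25 and 8.14 CPM at 1% protein, against 1.52, 0.978, 1.88 and 1.85 CPM at 2.5% protein. All libraries at 1% protein were higher, and the 3.66-fold rise (adjusted p = 0.00123) was the largest. Fbln5, a protein of elastic fibres, had 60.9, 56.5, 72.2 and 73.0 CPM at 1% protein, against 28.9, 25.6, 31.8 and 27.6 CPM at 2.5% protein. The groups were far apart relative to their spread, and the 2.30-fold rise had an adjusted p of 1.06e-05. Below the 12 largest, Apod, a lipid-binding lipoprotein of glia, averaged 575 ± 50.1 CPM at 1% protein and 338 ± 20.6 CPM at 2.5% (SD, n = 4 each; adjusted p = 0.000431).

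Wfikkn2, a secreted binding protein of growth factors related to myostatin, rose by 1.54 on the log2 scale (adjusted p = 0.000963). Pla2g3, a secreted phospholipase, rose by 1.37 (adjusted p = 0.00139) and Klrg2 by 1.30 (adjusted p = 0.00509). Otoa, known from the inner ear, rose by 1.78 (adjusted p = 0.0231), Cd101, a leukocyte surface protein, by 1.34 (adjusted p = 0.0219), and Il12rb1, a subunit of the receptors for interleukins 12 and 23, by 1.18 (adjusted p = 0.00546). The Otoa and Cd101 calls, both at mean levels under 3 CPM, ended without A2, C2, B1 or D2. The Otoa call also ended without C1. Without A2, B2 and D2 the adjusted p of Cd101 was 0.0925.

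Regulators of protein synthesis and of the response to scarce amino acids showed few calls. Of 53 tested genes of mTOR complexes and their regulators, only Ddit4 rose in edgeR's test, and Mtor itself had a log2 change of 0.09 (SE 0.05, adjusted p = 0.273). Of 25 mTORC1 effectors, Eif4b, a translation initiation factor, and Polr1a, a subunit of RNA polymerase I, rose by 0.25 and 0.21 on the log2 scale. Of 45 genes of the ATF4 response, 4 rose: Ddit4, Psat1, a serine synthesis enzyme, Gpt2, an alanine aminotransferase, and Cbs, of the transsulfuration pathway. Psat1 had 217, 216, 206 and 192 CPM at 1% protein, against 171, 158, 190 and 168 CPM at 2.5% protein (1.21-fold higher, adjusted p = 0.0279). The groups were separate by a small margin. Asns, the asparagine synthetase gene and a standard ATF4 target, named for that reason after its values were seen, had a log2 change of 0.24 and an adjusted p of 0.0583. It passed without B2 and D2 (log2 change 0.28, adjusted p = 0.00238), without A2, B2 and D2 (adjusted p = 0.00952), without B2 alone, with replicate number as a block (adjusted p = 0.0408) and in DESeq2. Gpt2 had a log2 change of 0.21 without A2, B2 and D2 (adjusted p = 0.099). Of 33 amino acid transporters, 1 rose.

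Of 74 tested ribosomal protein genes, 72 had a positive log2 change, with a median of 0.17, and 4 passed, among them Rpl3, Rplp0 and Rpl14, at log2 changes of 0.31, 0.32 and 0.28. Of 71 nuclear genes of the respiratory chain, 64 were positive, with a median of 0.15, and the ATP synthase subunits Atp5o and Atp5a1 passed. The deposited length of Atp5o reaches far beyond its annotated gene, so its counts are uncertain. All 12 tested genes of the mitochondrial genome were negative, with a median of -0.33, and none passed edgeR's test (5 at an unadjusted p under 0.05), while DESeq2 called 1. Of all 16646 genes tested, 8555 had a positive and 8091 a negative log2 change, and 1.39% rose. With a surrogate variable, 1 ribosomal protein gene and 0 nuclear respiratory genes rose. Over the alternatives, the smallest medians of the ribosomal and nuclear respiratory lists were 0.062 and 0.041. The largest median of the mitochondrial genome list was 0.0029. The counts on these lists moved most with 1 library. Without library B2, 39 ribosomal protein genes, 31 nuclear respiratory genes and 16 genes of the ATF4 list were higher, and 11 genes of the mitochondrial genome and 5 genes of the ATF4 list were lower. In the same setting 11 of the mTOR genes, 8 of the effectors and 8 of the transporters were higher, and 5 of the mTOR genes, 4 of the effectors and 4 of the transporters were lower. Over all genes, that setting called 2098 higher and 2167 lower, against 231 and 155 with all libraries, so calls rose far beyond these lists. That library also had the highest mitochondrial share at 1% protein, cortical markers and the only positive correlation with gene length at 1% protein. The part of these traits in the counts was not tested. Each of Eif4b, Polr1a, Psat1, Gpt2, Cbs, Rpl3, Rplp0, Rpl14, Atp5o and Atp5a1 lost its call without at least each of A1, A2, C1 and C2.

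Several genes of glia and blood vessels fell. The counts of called markers below stand against 0.931% fallen and 1.39% risen among all genes tested. Ugt8a, the enzyme that makes the main galactolipid of myelin, had 28, 23.5, 21.5 and 23.0 CPM at 1% protein, against 48.7, 61.3, 39.9 and 39.4 CPM at 2.5% protein. No libraries overlapped, and Ugt8a was 1.96-fold lower (adjusted p = 0.000431). Aspa, which splits N-acetylaspartate in oligodendrocytes, had 21.3, 20.8, 22.4 and 19.7 CPM at 1% protein, against 31.6, 36.1, 32 and 29.2 CPM at 2.5% protein. The libraries at 1% protein were within a narrow range, and Aspa was 1.53-fold lower (adjusted p = 0.00069). Of 13 tested oligodendrocyte markers 4 fell, among them these and Ermn, and 1 rose, Mal, with a list median of -0.16. Mbp, a major myelin protein, averaged 5132 ± 980 CPM at 1% protein and 4771 ± 235 CPM at 2.5% protein (SD, n = 4 each) with an adjusted p of 0.595.

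Of 8 tested markers of oligodendrocyte precursors, Enpp6 fell (log2 change -0.66, adjusted p = 0.015). Among 13 astrocyte markers 2 rose and 2 fell. Aldh1l1, a folate enzyme, and Agt, angiotensinogen, rose by 0.36 and 0.46 on the log2 scale (adjusted p = 0.0127 and 0.0236), while the water channel gene Aqp4 had a log2 change of -0.59 (adjusted p = 0.0253). Fabp7 had 8.44, 6.81, 7.08 and 7.16 CPM at 1% protein, against 20.8, 26.3, 9.42 and 16.3 CPM at 2.5% protein. It was even at 1% protein and spread widely at 2.5%, without overlap, and it was 2.45-fold lower (adjusted p = 0.008). Gfap, the classic astrocyte filament gene, is listed at 0 in all 16 libraries and gives no reading. Car2, a carbonic anhydrase of glia named after its values were seen, was 1.45-fold lower (adjusted p = 0.00748).

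Of 14 endothelial markers, 3 fell and none rose in edgeR's test (DESeq2 called 7 lower), with a list median of -0.35 against 0.01 for all genes tested. Emcn, a sialomucin of venous and capillary endothelium, had 2.81, 3.38, 2.38 and 2.50 CPM at 1% protein, against 4.93, 5.65, 4.68 and 5.49 CPM at 2.5% protein (1.88-fold lower, adjusted p = 0.00127). Itm2a had 25.6, 27.2, 21.3 and 23.2 CPM at 1% protein, against 37.9, 35.3, 36.8 and 40.6 CPM at 2.5% protein (1.55-fold lower, adjusted p = 0.00104). Neither gene overlapped between the groups. Kdr, the receptor of vascular endothelial growth factor, was 1.46-fold lower (adjusted p = 0.0388). The summed level of the endothelial list was 328.8 to 356.1 CPM at 1% protein and 357.1 to 446.5 CPM at 2.5% protein. Of 16 markers of mural and fibroblast-like cells, Rgs5 of pericytes and Col1a1 of fibroblasts fell, at log2 changes of -0.61 and -0.54.

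Among these genes Ugt8a, Aspa, Fabp7, Emcn, Itm2a and Car2 held in each alternative. The Aldh1l1 call ended without A2, C2 or B1. Rgs5 lost its call without the first of these and Enpp6 without the second. The calls of Aqp4, Ermn and Agt ended without any of A1, A2, C1 and C2 or without B1. Ermn also lost its call without replicate 1 of 60% fat with 5% protein, and Agt without D2. The calls of Mal, Kdr and Col1a1 ended without A2, B1, C1, C2 or D2. Without A2, B2 and D2 the log2 change of Kdr was -0.31 (adjusted p = 0.163). Mal and Kdr depended on 3 further libraries each. For Mal these were both replicates of 60% fat with 5% protein and D1. For Kdr they were replicate 2 of 60% fat with 5% protein and both replicates of 60% fat with 20% protein.

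Immune genes moved both ways. Of 12 tested microglial markers, Siglech and Ctss, a lysosomal protease, fell and none rose. Siglech, a surface lectin of microglia, had 9.29, 7.71, 8.07 and 7.98 CPM at 1% protein, against 11.7, 12.7, 10.9 and 12.1 CPM at 2.5% protein (1.43-fold lower, adjusted p = 0.00372). Its libraries fell into separate ranges by protein content. The class II antigen-presentation gene H2-Ab1 averaged 1.08 ± 0.113 CPM at 1% protein and 2.41 ± 1.05 CPM at 2.5% (SD, n = 4 each; adjusted p = 0.0341), and it was the 1 called gene of 7 on its list in edgeR. Of the 7, 5 had an unadjusted p under 0.05 and DESeq2 called 4 lower, and edgeR called 5 lower without B2, 4 without D1 and 2 without 20% fat, 5% protein replicate 1. Over all genes, these 3 edgeR settings called 2167, 196 and 181 lower. The adaptor gene Blnk fell, at a log2 change of -0.84. Adam8, a cell-surface protease, fell at -0.85 and the protease inhibitor Serpinb1a at -0.83. On the inflammatory list of 17 tested genes, the transcription factor Cebpd rose by 0.83 (adjusted p = 0.00807) and Nfkbia, the inhibitor of NF-kB, by 0.58 (adjusted p = 0.0245), while the adhesion molecule Vcam1 fell (log2 change -0.42, adjusted p = 0.0177). Nfkbia also stands on the glucocorticoid list and is counted there. No gene of the 25 on the interferon and class I list passed the test, with 8 at an unadjusted p under 0.05, and DESeq2 called 4 lower.

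The calls of Siglech, Adam8 and Cebpd held without each single library. Serpinb1a lost its call without C2. Nfkbia and Vcam1 lost it without A2, B1, C1 or C2. Without A2, B2 and D2 the adjusted p of H2-Ab1 was 0.0543. H2-Ab1 and Blnk lost it without A1, A2, B1, C2 or D2. Ctss lost it without A1, A2, B1, C2 or D1.

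Other fallen genes among the 12 with the largest decreases were Fbxw23 and Fbxw15, from a cluster of F-box genes with similar copies on chromosome 9, and Mpp4, a scaffold protein known from photoreceptors. Fbxw15 averaged 8.87 ± 1.35 CPM at 1% protein and 17.6 ± 1.07 CPM at 2.5% (SD, n = 4 each; adjusted p = 0.00104), and Fbxw23 was 2.57-fold lower (adjusted p = 0.0267). Because the counting could divide reads between similar copies, both are uncertain. Mpp4, at 1.70 CPM at 1% protein and 3.22 CPM at 2.5%, had an adjusted p of 0.0316. The Fbxw23 call ended without A2, C1, B1 or D2. The Mpp4 call ended without any of A1, A2, B1, C1 and C2.

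Smaller groups had 1 or 2 calls each. Of 14 tested genes of thyroid hormone transport and action, Hr, a hormone-induced corepressor, rose by 0.76 (adjusted p = 0.0081) and Slco1c1, a thyroxine transporter of brain capillaries, fell (log2 change -0.40, adjusted p = 0.0131). Of 17 clock genes, Tef and Cry2, both regulators of daily rhythm, rose by 0.24 and 0.30. Hsph1, a chaperone, fell among 21 heat shock genes (log2 change -0.35, adjusted p = 0.0235), and Hmgcs1, of the cholesterol pathway, fell among 23 (log2 change -0.18, adjusted p = 0.0388). The Hr and Slco1c1 calls held without each single library. Tef, Cry2 and Hmgcs1 lost their calls without any of A1, A2, C1 and C2 or without B1, and Hmgcs1 also lost it without D1 or D2. Hsph1 lost its call without A2, B1, C1 or C2.

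Lists with no call in edgeR were, among others, those of immediate early genes (22 tested), GABA and glutamate receptors (38), dopamine and opioid signalling (22), autophagy and lysosome (27) and tanycytes (12). They had 3, 13, 5, 4 and 2 genes at an unadjusted p under 0.05 and 0, 1, 1, 0 and 1 in DESeq2. Without library B2, 18 genes of GABA and glutamate receptors were lower, in a setting that called 2167 of all genes lower and 2098 higher.

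Markers of neighbouring tissue were high in single libraries. None of 15 markers of cortical and hippocampal neurons passed edgeR's test (1 at an unadjusted p under 0.05) or DESeq2's, and their summed level was 1744 to 2529 CPM at 1% protein and 1538 to 3807 CPM at 2.5% protein. Of 12 striatal markers, Gpr6, a receptor of striatal projection neurons named after its values were seen, rose, at 8.84, 11.7, 7.68 and 7.38 CPM at 1% protein against 4.76, 4.29, 5.65 and 4.19 CPM at 2.5% protein (adjusted p = 0.0402). Its groups did not overlap, and its highest library was A2, the one with striatal markers. The summed level of the 12 striatal markers was 399.9 to 722.9 CPM at 1% protein and 388.7 to 401.9 CPM at 2.5% protein, with a median log2 change of 0.60. The part of striatal tissue in the Gpr6 value was not tested, and its adjusted p was 0.0634 without the 3 libraries with markers of neighbouring tissue. Leaving out any of A1, A2, B1, C1, C2, D2, replicate 1 of 60% fat with 5% protein or either replicate of 60% fat with 20% protein also ended its call. Thalamic and choroid plexus markers had no call in edgeR among 12 and 11 tested (4 and 1 at an unadjusted p under 0.05), and DESeq2 called 1 thalamic marker higher. Ttr, a choroid plexus marker, had a log2 change of 1.00 (edgeR adjusted p = 0.47). It passed as higher without B2 and D2 (log2 change 1.81, adjusted p = 0.0459) and without A2, B2 and D2 (2.03, adjusted p = 0.0499).

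The fat content of the diet did not detectably alter the step. With 60% fat, 182 genes passed between 1% and 2.5% protein (1.09% of those tested), 82 higher (0.493%) and 100 lower (0.601%). With 20% fat, 29 passed (0.174%), 17 higher (0.102%) and 12 lower (0.0721%). These fits set 2 libraries against 2 and borrow the spread of all 8 diets. Both fat levels shared 20 calls, which is 11% of the 60% fat calls and 69.0% of the 20% fat calls. Of the 182 genes called at 60% fat, 164 had the same sign in the libraries at 20% fat (90.1%), as had 60.5% of all genes tested. Tested directly, the difference by fat called 0 genes in edgeR, with 1656 at an unadjusted p under 0.05, and 0 in DESeq2, with 1214. The count at 60% fat was 2379 without library B2, and 2 without A2. That at 20% fat was 3 without D2 and 106 without D1. That of the difference was 774 without B1.

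At 60% fat Pomc had a log2 change of -1.37 (adjusted p = 0.00899), and at 20% fat it had -0.49 (adjusted p = 0.623). The difference of -0.88 had an adjusted p of 0.49, so the data do not separate the fat levels for this gene. Npy rose at both, by 1.16 at 60% fat (adjusted p = 0.0348) and by 1.5 at 20% fat (adjusted p = 0.025). Itgad, Cdkn1a and Plin4 had the largest rises at 60% fat, and Itgad, Wfikkn2 and Npy at 20% fat. The largest falls at 60% fat, among genes with a mean of at least 1 CPM, were in Zfp937, Ccdc158 and Fabp7, the first 2 at mean levels under 2 CPM. At 20% fat they were in Fbxw15, Emcn and Alpl, a phosphatase of brain capillaries that had a log2 change of -0.98 there (adjusted p = 0.0274) and -0.26 at 60% fat. Over both fat levels the Alpl call ended without A2, B1, C2 or D2, and without A2, B2 and D2 (adjusted p = 0.053). Zfp937 and Ccdc158, not called over both fat levels, passed there without B2 and D2 (adjusted p = 0.0354 and 0.0364). The genes with the smallest p for the difference, none passing, were Pmepa1, Itgb3bp and Zim1. Their log2 changes at 60% and 20% fat were 0.21 and -0.31, -0.67 and 0.35, and -0.67 and -0.03. Over both fat levels, Zim1 (log2 change -0.52) and Itgb3bp (-0.46) passed without B2 and D2 (adjusted p = 0.00168 and 0.0313), and Zim1 also without A2, B2 and D2 (adjusted p = 0.0079).

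**Figure D4:**
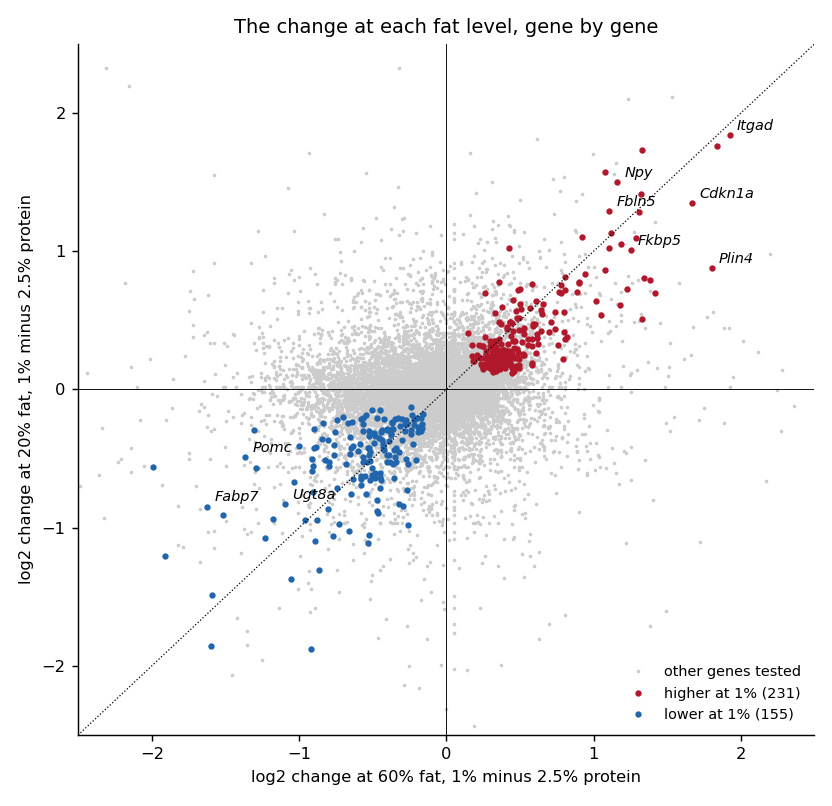
Log2 change between 1% and 2.5% protein at 60% fat (x axis) and at 20% fat (y axis) for each gene tested, with genes called over both fat levels in red (231 higher) and blue (155 lower), a dotted line of equal change and axes limited to 2.5 either way. The called genes lie in the quadrants of equal sign, which their selection over both fat levels favours.

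The step from 2.5% to 1% protein was also set against the step from 5% to 2.5%. The numbers of calls were 0 for 2.5% against 5% protein in edgeR (717 at an unadjusted p under 0.05, and 13, or 0.0781%, in DESeq2), 811 for 1% against 5% (4.87%) and 2376 for 1% against 20% (14.3%). These comparisons share libraries with that of 1% against 2.5%. A test of whether the 2 steps differ called 5 genes (0.03%; 1470 at an unadjusted p under 0.05, and 33, or 0.246%, in DESeq2). Fbln5 averaged 65.7, 28.5, 31.8 and 26.3 CPM at 1%, 2.5%, 5% and 20% protein, and its steps differed by 1.37 on the log2 scale (SE 0.17, adjusted p = 0.0071). Angptl4 averaged 15.7, 7.81, 10.7 and 6.35 CPM (difference 1.47, SE 0.20, adjusted p = 0.0078), and Apod 575, 338, 378 and 334 CPM (difference 0.93, SE 0.15, adjusted p = 0.0459). Each was highest at 1% protein, and each was higher at 5% than at 2.5% protein. Both steps use the 2.5% libraries, so a low level there adds to the difference.

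Aspa averaged 21.1, 32.2, 28.9 and 34.9 CPM at 1%, 2.5%, 5% and 20% protein, and its steps differed by -0.76 (SE 0.12, adjusted p = 0.0459). The fifth gene, Cuedc1, was listed at 0 in all 4 libraries at 1% protein, against 1.03, 3.04, 0.108 and 0.870 CPM at 2.5% protein, and had at most 0.109 CPM at 5% and 0.0541 CPM at 20% protein. Its level at 2.5% protein differs widely between libraries, and other genes of this table are listed at 0 throughout, so no fold is given. Pomc averaged 12.7, 25.3, 37.7 and 47.5 CPM over the 4 contents and Npy 80.3, 31.1, 24.1 and 17.2 CPM. Their steps differed by -0.38 (adjusted p = 0.665) and 1.00 (adjusted p = 0.47), so no difference between steps was shown for either. The 2 steps cover unequal ranges of protein content, so the test does not compare slopes. Fkbp5 averaged 117, 53.7, 55.7 and 47.1 CPM, and its steps differed by 1.18 (adjusted p = 0.177). The count of genes whose steps differ was 522 without library B2 and 0 without C2.

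**Figure D5:**
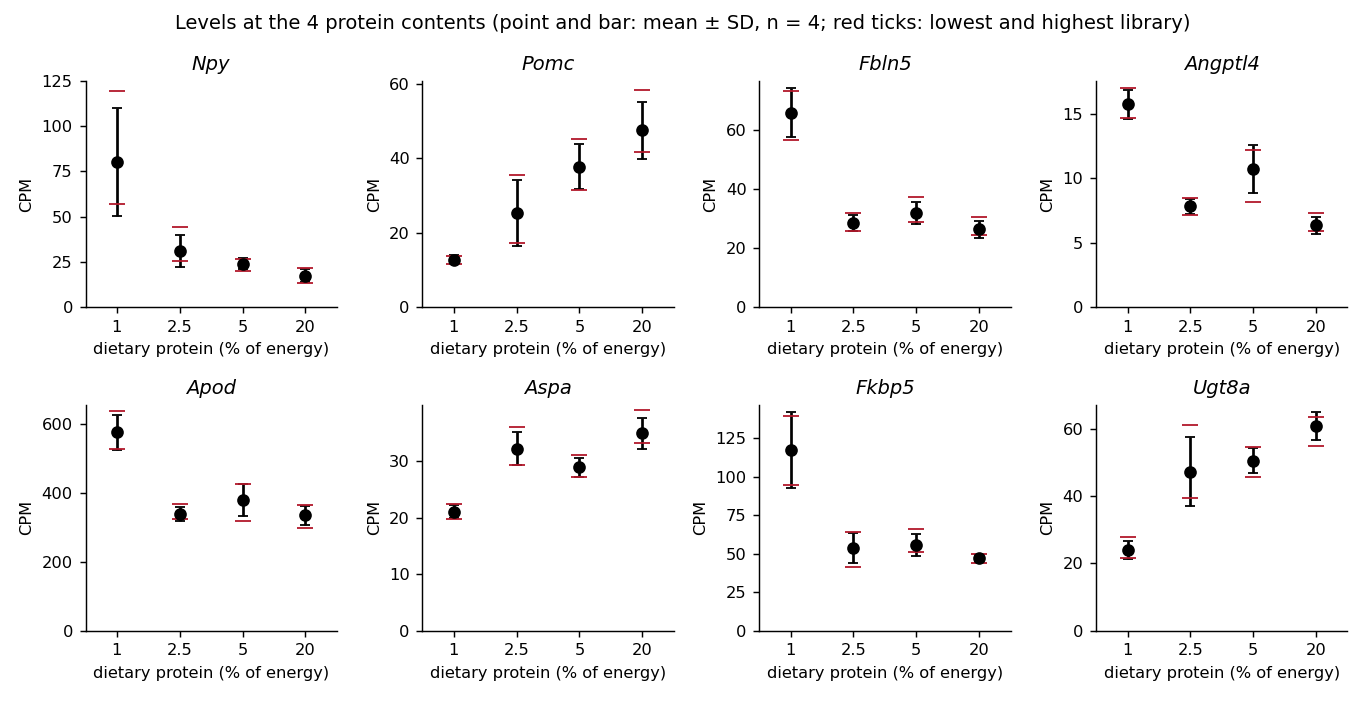
CPM of 8 genes at 1%, 2.5%, 5% and 20% of energy from protein, as the mean ± SD of 4 libraries (points and bars) with the lowest and highest library (red ticks). Fbln5 stands at 65.7 CPM at 1% protein and between 26.3 and 31.8 CPM at the others, while Pomc runs through 12.7, 25.3, 37.7 and 47.5 CPM.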

How the data were processed

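Total RNA from mouse hypothalamus was sequenced in 16 libraries, 2 for each of 8 diets. The authors deposited raw read counts per gene, and the submitters' processing notes name FastQC, HISAT2 2.1.0, SAMtools 1.2, featureCounts, Subread 5.0, edgeR and the genome build GRCm38. No source used here states whether counting used strand, so overlapping and antisense genes cannot be told apart. Of the named genes, Agrp, Atp5a1, Atp5o, Cebpd, Ermn, Itgad, Itgb3bp, Mpp4, Mtor, Pla2g3, Plin4, Pmch, Rpl3, Sult1a1 and Ucp2 overlap another coding gene, so their counts are uncertain. The deposited gene length equals the genomic span for 85.5% of IDs matched to an annotation, so counts may hold intronic reads. Such reads would add to long genes.

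From the counts, genes with low counts were removed (filterByExpr, minimum 10), leaving 16646 of 47069. TMM scaling and edgeR 4.0.16 quasi-likelihood tests (R 4.3.3, limma 3.58.1) used protein content and fat over all 16 libraries, with 11 residual degrees of freedom. The 8 diets, with 8 residual degrees of freedom, gave the values per fat level and their difference. P-values were Benjamini-Hochberg adjusted over all genes tested, with a threshold of 0.05. Total counts of 17731242 to 18511818 set the counting precision. DESeq2 1.42.0, sva 3.50.0 and further alternatives are given at the end.

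Named genes with a mean of at least 1 CPM were the 12 highest and 12 lowest called changes, the 3 highest and 3 lowest at each fat level and for the tests of a difference (the 3 smallest p where none passed), and up to 4 called members per functional list. Npy, Agrp, Pomc, Cartpt, Hcrt, Pmch, Mtor and some defining markers were added whether or not they passed. A further 31 genes were chosen after their values were seen: the other called members of the glucocorticoid list, and Ucp2, Pdk4, Plin5, Pnpla2, Cuedc1, Car2, Asns, Cirbp, Rbm3 and the named called markers of cell types among them. The comparison and the lists were chosen with earlier results of these data known. Of 876 list genes, 816 were tested, and 32 were listed at 0 in all 16 libraries. Some called genes are not reported here.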

Additional observations from a re-analysis of the deposited data

Results flagged for a closer look

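Of 210 sets of 4 libraries looked at, 22 held a library far from the other 3 by the ratio of its gap to the range (Dixon), where chance alone gives about 1 in 20. In library B2, the mitochondrial share was 3.197% (others 1.538 to 1.776%) and the log2 deviation of cortical markers was 0.717 (others -0.3138 to -0.2594). In the same library Slc17a7 was at 275.3 CPM (others 107.9 to 130.7), Neurod6 at 11.88 (0.8442 to 1.463), Ermn at 58.06 (40.63 to 43.33), Mpp4 at 2.496 (1.35 to 1.52), H2-Ab1 at 1.248 (1.013 to 1.05) and Pla2g3 at 26.26 (13.34 to 15.47). It was the lowest at 1% protein for Rpl3, at 205.6 CPM (244.6 to 250.8), and Rpl14, at 125.5 CPM (153.8 to 158.7).

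In library D2, Slc17a7 was at 562.3 CPM (others 80.67 to 136), Neurod6 at 25.89 (1.345 to 4.222), Ttr at 176.2 (9.148 to 16.84) and Npy at 44.33 (25.36 to 28.52). Slc17a7 and Neurod6 mark cortical excitatory neurons, and Ttr marks choroid plexus. In library C2, Cdkn1a was low at 20.04 CPM (33.29 to 35.78), Cbs at 45.08 (52.4 to 53.38) and Fbxw23 at 4.942 (6.511 to 6.658). In library A2, Hr was at 217.5 CPM (157.6 to 164.4) and Tcf7l2 at 150.1 (113.9 to 116.3). Cd101 was low, at 0.7316 CPM, in A1 (1.824 to 1.913). Apod was at 368.5 CPM (322.8 to 330.5) and Mtor at 168.3 CPM (161.2 to 162.4) in D1.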

How the results depend on the processing

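Of 83 named genes that passed, 24 passed in each alternative, among them Npy, Fbln5, Fkbp5, Ddit4, Angptl4, Ugt8a, Aspa, Fabp7 and Emcn, and none changed direction in any. The counts of calls moved more. In this order they are genes higher, genes lower, genes at 60% fat, genes at 20% fat, genes whose change differs between fat levels, and genes whose steps differ. DESeq2 gave 478, 331, 1196, 54, 0 and 33, and edgeR's likelihood ratio test gave 471, 318, 1508, 71, 1 and 31. Without a count filter the last 4 were 1749, 101, 102 and 13. Fitting only the 8 libraries gave 37, 16, 9 and 1 for the first 4, with fewer libraries to estimate the spread. With a surrogate variable the counts at 60% fat, at 20% fat and of differing steps were 70, 84 and 15, and removing a trend with gene length gave 559 at 60% fat. Without both libraries with cortical markers there were 1983 higher, 2043 lower and 493 differing steps. Without 3 libraries with markers of neighbouring tissue, chosen after seeing the data, there were 1445 higher and 1512 lower. Leaving out each library gave 56 to 2098 higher, 39 to 2167 lower, 2 to 2379 at 60% fat, 3 to 106 at 20% fat, 0 to 774 for the difference and 0 to 522 for the steps. The cause of these shifts was not tested.

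The labels do not say whether equal replicate numbers pair the libraries. Correlations of the differences between replicates among these diets ran from -0.042 to 0.229, the highest being 1% and 2.5% protein at 20% fat. Over all 28 diet pairs they ran from -0.17 to 0.339. With a replicate block there were 359 higher, 213 lower, 1337 at 60% fat and 3 differing steps.

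Directions of 6 genes that did not pass turned: with the surrogate variable Mbp (log2 change -0.1161) and Itgb3bp (0.05749). Without both cortical-marker libraries Pmepa1 (0.04679) and Slc17a7 (0.1985) turned, and without the 3 libraries Hcrt (0.02726) and Slc17a7 (0.1522). Leaving out single libraries gave -0.1799 to 0.1162 for Hcrt, -0.1444 to 0.009369 for Pmepa1, -0.757 to 0.5942 for Slc17a7 and -2.564 to 0.4941 for Neurod6. With 2 libraries a diet, a difference between fat levels is estimated with little replication, and genes under about 1 CPM have few counts.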

Other observations

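The RNA-binding protein genes Cirbp and Rbm3, known for induction by mild cold, both rose and were chosen after their values were seen. Cirbp had 182, 156, 223 and 136 CPM at 1% protein, against 98.0, 104, 143 and 122 CPM at 2.5% protein (1.49-fold higher, edgeR adjusted p = 0.0283). Rbm3 had 26.5, 36.1, 42.5 and 39.0 CPM at 1% protein, against 25.2, 21.1, 29.2 and 28.9 CPM at 2.5% protein (1.38-fold higher, edgeR adjusted p = 0.0402). The groups overlapped in both genes. Without A2, B2 and D2 the adjusted p of Rbm3 was 0.065. The Cirbp call ended without any of A1, A2, C1 and C2, B1 or D2, and the Rbm3 call without any 1 of 11 libraries. For Rbm3 these were A2, both replicates of 60% fat with 2.5% and with 5% protein, 60% fat, 20% protein replicate 1, B1, D1 and D2, 20% fat, 5% protein replicate 2 and 20% fat, 20% protein replicate 1.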
